A study of Mus musculus with 12 samples.

Results

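The genes described here are 10 genes tied to follicular regulatory T cells (Tfr), measured by RNA-Seq in splenic regulatory T cells (Treg) with and without the integrin chain CD18. They are Cxcr5, Bcl6, Ascl2, Tox2, Il21, Sostdc1, Cebpa, Pou2af1, Serpina9 and Angptl2, found by name among the 41457 genes of each library. They had been chosen by their measured genotype difference in unstimulated Treg (lower levels and negative log2 fold changes in CD18Foxp3 libraries), so that difference is given below as a description without a test. Treg were sorted as RFP+CD4+ spleen cells of mice in which Cre, expressed from the Foxp3 locus, switches on a red reporter in the Rosa26 locus. CD18Foxp3 mice carried CD18 alleles with loxP sites around exon 3 (CD18 fl/fl) together with Foxp3Cre, and CD18wt littermates carried Foxp3Cre with wild-type CD18, so both genotypes held the Cre and the reporter and the deletion covered every Foxp3-expressing cell, not follicular cells alone. All cells were cultured overnight with 5 U/mL IL-2. The stimulated groups also received agonistic antibodies against CD3 (1 μg/mL) and CD28 (2 μg/mL). Each combination of genotype and culture had 3 libraries, named biological replicates, and the ages of these mice were not given in the sources used here. The labels do not say whether a stimulated and an unstimulated library came from the same mouse.

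Tfr are Treg that enter the B cell follicle and restrain the germinal centre reaction, in which B cells are selected with the help of follicular helper T cells. Both cell types carry CXCR5, the receptor for the follicular chemokine CXCL13, and need the transcriptional repressor BCL6. BCL6 and BLIMP-1 (encoded by Prdm1) repress each other, and IL-2 acts through STAT5 and BLIMP-1 against the follicular programme. ASCL2 and TOX2 are transcription factors that favour that programme in helper cells, and IL-21 is the cytokine with which helper cells drive germinal centre B cells. Sostdc1 encodes a secreted antagonist of BMP and Wnt signals, Cebpa the myeloid transcription factor C/EBPα, Pou2af1 the octamer coactivator OBF-1 best known from B cells, Serpina9 a serpin of germinal centre B cells, and Angptl2 a secreted angiopoietin-like protein.

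Coordinates follow GRCm38, the build the authors mapped to. The secreted proteins and the receptor are encoded by Cxcr5 (ENSMUSG00000047880, chromosome 9, 44511787 to 44561877), Il21 (ENSMUSG00000027718, chromosome 3, 37222759 to 37232636), Sostdc1 (ENSMUSG00000036169, chromosome 12, 36314139 to 36318452), Serpina9 (ENSMUSG00000058260, chromosome 12, 103994743 to 104013755) and Angptl2 (ENSMUSG00000004105, chromosome 2, 33216069 to 33247717). The nuclear factors are encoded by Bcl6 (ENSMUSG00000022508, chromosome 16, 23965052 to 23988852), Ascl2 (ENSMUSG00000009248, chromosome 7, 142966829 to 142969264), Tox2 (ENSMUSG00000074607, chromosome 2, 163203125 to 163324170), Cebpa (ENSMUSG00000034957, chromosome 7, 35119293 to 35121928) and Pou2af1 (ENSMUSG00000032053, chromosome 9, 51213708 to 51240080). All 10 are annotated as protein-coding, and 99.5% or more of the exon reads of each were placed uniquely. Neither the kit nor the counting was stated to keep the strand, so reads of overlapping genes could not be told apart. Exons of Cxcr5 share 110 of 3332 bases with Bcl9l, which held between 2118 and 5831 reads a group, and exons of Il21 share 469 of 5259 bases with the antisense gene Gm12534, which held at most 6. Angptl2 lies within Ralgps1 on the other strand and shares 0 exon bases with it.

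RefSeq (GRCm38.p6) gives promoter windows, from 250 bases before to 50 bases after a start, for 7 of the 10 genes (Angptl2, Tox2, Il21, Cebpa, Ascl2, Pou2af1 and Bcl6), 12 windows in all. They were searched on both strands for the E-box CAGCTG, the octamer ATGCAAAT, the BCL6-type motif TTCCNNGAA and the AP-1 motif TGANTCA, which occur in 16.3%, 1.74%, 4.81% and 7.81% of all 32851 windows of that length. A window of Angptl2, the gene that moved against the others on stimulation, held the E-box at 3 places. The window at a second start of Bcl6, inside the gene, held the BCL6-type motif at 2 places. No other window held any of these letters, that of Ascl2 included, whose level differed most between the genotypes in unstimulated Treg. These windows are printed 5′ to 3′ on the strand of the gene, with the matches in capitals and overlapping no other match.
Angptl2, chr2:33215711-33216010, plus strand: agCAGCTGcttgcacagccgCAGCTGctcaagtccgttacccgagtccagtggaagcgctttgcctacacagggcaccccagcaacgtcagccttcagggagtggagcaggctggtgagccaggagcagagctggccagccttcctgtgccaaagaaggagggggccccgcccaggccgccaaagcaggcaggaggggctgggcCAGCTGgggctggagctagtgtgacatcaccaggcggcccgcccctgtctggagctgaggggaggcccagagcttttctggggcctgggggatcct
Bcl6, chr16:23981234-23981533, minus strand: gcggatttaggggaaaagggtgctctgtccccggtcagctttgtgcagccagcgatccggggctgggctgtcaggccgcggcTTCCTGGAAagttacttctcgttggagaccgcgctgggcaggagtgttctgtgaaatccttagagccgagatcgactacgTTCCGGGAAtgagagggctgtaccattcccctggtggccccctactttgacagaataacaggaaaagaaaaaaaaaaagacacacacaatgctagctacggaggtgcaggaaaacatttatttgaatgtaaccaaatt
Ascl2, chr7:142969215-142969514, minus strand: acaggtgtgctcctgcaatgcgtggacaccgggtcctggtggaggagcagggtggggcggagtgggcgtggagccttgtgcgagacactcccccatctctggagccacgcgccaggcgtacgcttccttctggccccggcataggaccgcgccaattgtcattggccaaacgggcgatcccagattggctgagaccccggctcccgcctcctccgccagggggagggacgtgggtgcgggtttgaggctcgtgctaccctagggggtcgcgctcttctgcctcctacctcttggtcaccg
A match is a description of the letters and no evidence of binding.

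Exon reads per library ranged from 10665174 to 19005482, with the fewest in replicate 3 of unstimulated CD18wt Treg. The targeted gene Itgb2, which encodes CD18, was at 502 to 558 CPM (reads scaled to a common library size) in unstimulated CD18wt Treg and 274 to 316 CPM in unstimulated CD18Foxp3 Treg. After stimulation Itgb2 was at 291 to 333 and 124 to 184 CPM, so the libraries followed their labels in both cultures, although reads of the exons that stay in place count too. Foxp3 lay between 143 and 293 CPM in the 12 libraries. RNA came from mixed Treg. Fewer Tfr, less RNA per Tfr and changes in other sorted cells that express these genes cannot be told apart.

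In unstimulated CD18wt Treg the 10 genes spanned from 5.67 ± 0.847 TPM (Serpina9; SD, n = 3) to 137 ± 23.5 TPM (Sostdc1). TPM scale reads by exon length and library size and allow levels of different genes to be compared. Sostdc1, Cxcr5, Tox2 and Cebpa followed each other without overlapping libraries, with means of 137, 92.3, 61.0 and 36.4 TPM. Pou2af1 (26.3 TPM) and Bcl6 (24.0 TPM) overlapped, as did Ascl2 (9.12 TPM), Il21 (8.56 TPM) and Serpina9 (5.67 TPM) with their neighbour in the order. Angptl2 lay between these sets at 17.1 TPM.

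In unstimulated Treg every one of the 10 genes was lower in CD18Foxp3 than in CD18wt libraries, with no overlap for any of them. Over all 11829 genes tested, 6.9% had CD18Foxp3 libraries wholly under CD18wt libraries. Since the genes had been chosen with this contrast known, nothing follows from the count. The largest differences were those of Ascl2, Serpina9, Il21, Pou2af1 and Sostdc1, with fitted log2 fold changes of -2.91, -2.59, -1.78, -1.47 and -1.41. The other genes, Cebpa (-0.89), Cxcr5 (-0.86), Tox2 (-0.72), Angptl2 (-0.64) and Bcl6 (-0.62), differed by less than 1 on that scale. Standard errors (SE) of the 10 estimates lay between 0.10 and 0.43, and the median of the genes was -1.15, beside -0.0044 over all genes tested.

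The receptor and the secreted factors showed these differences in each library. Cxcr5 was at 95.1, 93.2 and 88.5 TPM in CD18wt Treg and 57.0, 59.6 and 38.2 TPM in CD18Foxp3 Treg, where replicate 3 stood lowest. Il21 was at 6.15, 9.90 and 9.65 TPM in CD18wt Treg and 2.40, 2.64 and 2.60 TPM in CD18Foxp3 Treg. All CD18Foxp3 values of Il21 thus lay close together and under the lowest CD18wt library. Sostdc1 was at 135, 115 and 161 TPM in CD18wt Treg and 44.5, 69.2 and 44.0 TPM in CD18Foxp3 Treg. Serpina9 was at 4.85, 6.54 and 5.63 TPM against 0.915, 0.945 and 1.01 TPM, with 359 reads in the CD18wt group and 67 in the CD18Foxp3 group. Angptl2 had the narrowest gap among the secreted factors, with 15.7, 16.6 and 19.0 TPM against 12.4, 10.2 and 10.8 TPM.

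Among the nuclear factors, Ascl2 differed most. It was at 6.02, 7.68 and 13.7 TPM in CD18wt Treg, highest in the library of lowest depth, and 1.30, 1.28 and 1.09 TPM in CD18Foxp3 Treg. Pou2af1 was at 23.0, 26.3 and 29.6 TPM in CD18wt Treg and 8.14, 11.3 and 9.46 TPM in CD18Foxp3 Treg. The factor that defines the lineage differed least: Bcl6 was at 26.1, 23.9 and 21.9 TPM in CD18wt Treg and 15.1, 20.02 and 12.4 TPM in CD18Foxp3 Treg. Tox2 lay within 56.8 to 68.6 TPM and within 36.2 to 39.9 TPM, and Cebpa within 34.6 to 38.4 TPM and within 18.0 to 21.5 TPM. Replicates of Tox2 and Cebpa thus varied little beside the gap between the genotypes.

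**Figure D1:**
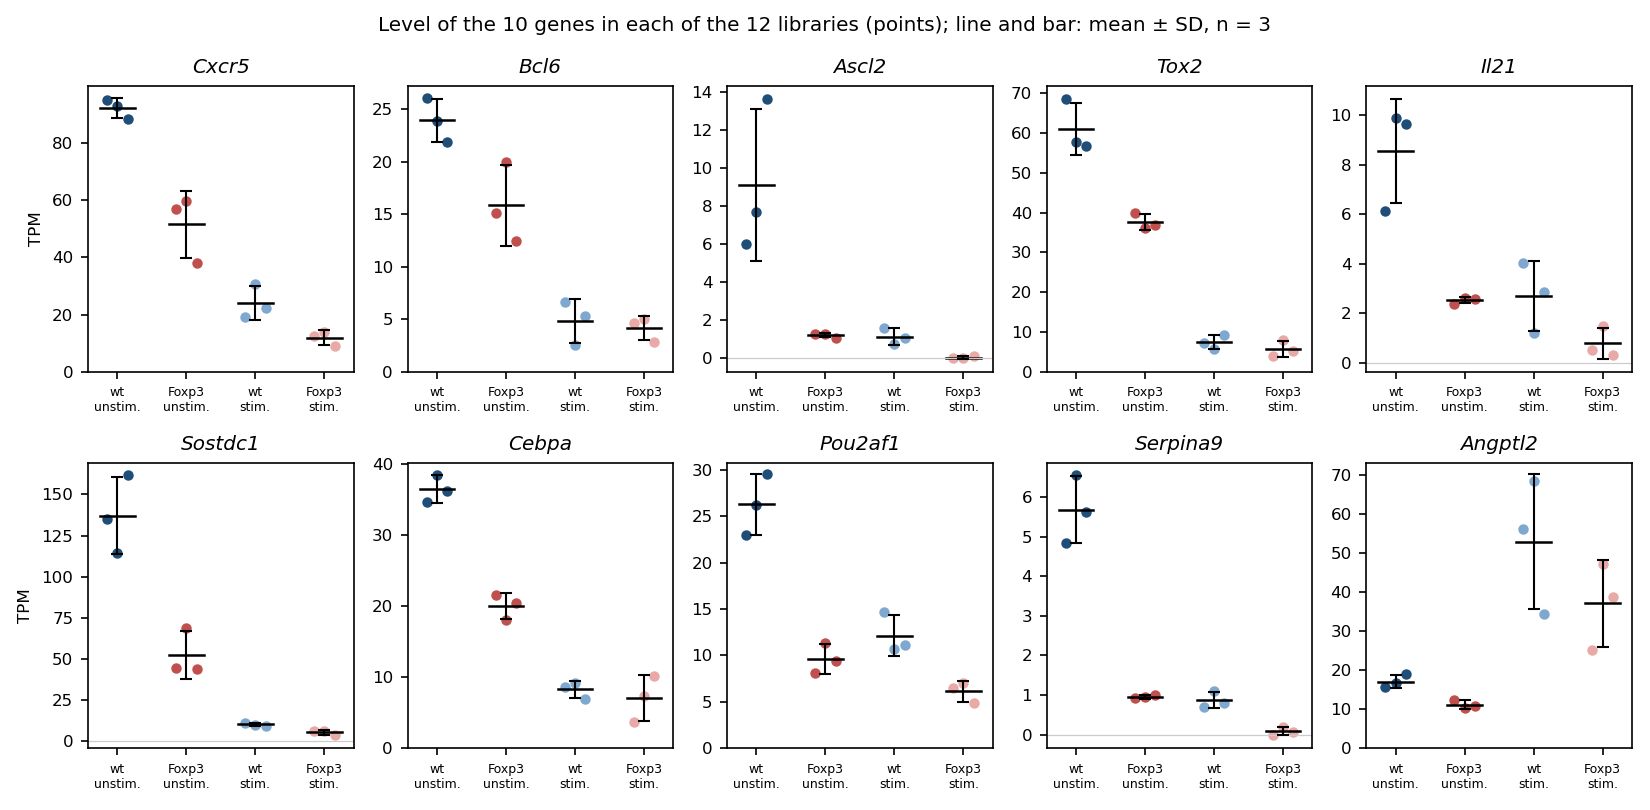
TPM (linear axis from 0) of each gene in the 12 libraries, 3 points for each of the 4 groups, with the mean as a line and the SD as a bar. In unstimulated Treg the CD18Foxp3 points lie under the CD18wt points for every gene, and Angptl2 alone is higher in both stimulated groups than in both unstimulated groups.

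Stimulation through CD3 and CD28 lowered most of these genes and raised 1. With both genotypes averaged over the 12 libraries, 9 of the genes fell and Angptl2 rose past the threshold used throughout, a 1.5-fold change with an adjusted p no higher than 0.01. Among the 9 is Ascl2, which passed the filter on low counts through its unstimulated libraries, so that a fall was favoured. The p-values below are from edgeR's quasi-likelihood test, adjusted by Benjamini-Hochberg over 12636 genes. Stimulation changed a large part of the transcriptome: 19.5% of all genes were past the threshold and lower, and 22.7% past it and higher. The median log2 fold change of the 10 genes was -2.46, beside 0.011 over all genes tested. The split of calls was 2870 higher and 2460 lower. It was 2559 higher and 2768 lower with upper-quartile in place of TMM normalization. A limma fit on log2(TPM + 1), which changed the scaling, the pseudocount and the test together, gave 4272 higher and 1327 lower with a median of all genes of 0.31. All 10 genes kept their direction and their call in both. In 5 of the 10 genes (Cxcr5, Bcl6, Tox2, Sostdc1 and Cebpa) all stimulated libraries lay under all unstimulated libraries, as in 10% of all genes tested. Set beside the genotype estimates in unstimulated Treg, the stimulation estimates were larger in size for every gene but Pou2af1, a difference that was not tested. This averaged contrast does not contain the genotype difference by which the genes had been chosen.

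Among the receptor and the secreted factors, Sostdc1 fell most. It stood at 11.4, 10.1 and 9.58 TPM in stimulated CD18wt Treg and 6.38, 6.47 and 3.73 TPM in stimulated CD18Foxp3 Treg, after holding the highest level of all 10 genes without stimulation. Its log2 fold change was -3.87 (SE 0.18, edgeR adjusted p = 4.5e-11), 14.6-fold lower. Serpina9 stood at 0.706, 1.09 and 0.792 TPM in stimulated CD18wt Treg and 0, 0.196 and 0.0531 TPM in stimulated CD18Foxp3 Treg. Its log2 fold change was -3.45 (SE 0.40, edgeR adjusted p = 1.1e-06). The stimulated CD18Foxp3 libraries held only 0, 4 and 1 reads of Serpina9, which is 0.0963 CPM by total exon reads (exact Poisson 95% interval from 0.0313 to 0.225) against 1.06 (from 0.779 to 1.40) in stimulated CD18wt Treg. Such intervals cover counting error only.

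Cxcr5 kept a higher mean than the other falling genes, though its stimulated CD18Foxp3 libraries overlapped those of Cebpa (up to 10.2 TPM). It was at 19.3, 30.6 and 22.2 TPM in stimulated CD18wt Treg and 12.6, 14.0 and 9.08 TPM in stimulated CD18Foxp3 Treg, a log2 fold change of -2.40 (SE 0.16, edgeR adjusted p = 5.3e-09) and 5.28-fold lower. Every stimulated library lay under every unstimulated one. Il21 was at 4.05, 1.23 and 2.88 TPM in stimulated CD18wt Treg and 0.540, 1.51 and 0.334 TPM in stimulated CD18Foxp3 Treg. The fall of Il21 had a log2 fold change of -2.07 (SE 0.31, edgeR adjusted p = 2.9e-05), and stimulated CD18wt Treg overlapped unstimulated CD18Foxp3 Treg.

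The nuclear factors fell together. Bcl6 was at 6.62, 2.52 and 5.33 TPM in stimulated CD18wt Treg and 4.67, 5.05 and 2.86 TPM in stimulated CD18Foxp3 Treg, all under the lowest unstimulated library. Its log2 fold change was -2.52 (SE 0.20, edgeR adjusted p = 3.5e-08). Tox2 fell to between 4.08 and 9.35 TPM, a log2 fold change of -3.27 (SE 0.14, edgeR adjusted p = 2.5e-11). That was the largest fall among the nuclear factors with more than 1 read in every library. Cebpa fell to between 3.65 and 10.2 TPM, a log2 fold change of -2.20 (SE 0.19, edgeR adjusted p = 4.7e-08).

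Ascl2 and Pou2af1 marked the ends of the range of falls fitted by edgeR. Ascl2 had the largest, -4.18 (SE 0.51, edgeR adjusted p = 2.2e-06), with 10, 7 and 9 reads in stimulated CD18wt Treg and 0, 0 and 1 read in stimulated CD18Foxp3 Treg. Neither stimulated group held enough reads of Ascl2 by itself to pass the filter, and the size of its fall rests on these low counts. With limma on log2(TPM + 1) the fall of Ascl2 was -1.64, and that of Sostdc1 was -3.32. In CD18Foxp3 Treg the summed reads went from 38 to 1, a ratio of 38.5 after division by library size with an exact 95% counting interval from 6.51 to 1561. The fall of Pou2af1 was the smallest, -1.27 (SE 0.15, edgeR adjusted p = 1.9e-06), from the unstimulated values above to 14.7, 10.7 and 11.1 TPM in CD18wt Treg and 6.50, 7.06 and 4.90 TPM in CD18Foxp3 Treg. Stimulated CD18wt Treg thus held about as much Pou2af1 as unstimulated CD18Foxp3 Treg, and those groups overlapped.

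Angptl2 was the exception. It rose to 56.1, 68.5 and 34.4 TPM in CD18wt Treg and 25.3, 47.4 and 38.9 TPM in CD18Foxp3 Treg, above all unstimulated libraries. Its log2 fold change was 1.31 (SE 0.19, edgeR adjusted p = 3.6e-05), 2.47-fold higher. Intron reads of Angptl2 went the same way, from 3 to 14 in an unstimulated library to 23 to 57 in a stimulated library, whereas those of Bcl6 went from 53 to 129 down to 16 to 41. Ralgps1, around Angptl2 on the other strand, held 528 and 421 exon reads in the unstimulated CD18wt and CD18Foxp3 groups and 315 and 399 in the stimulated groups. The order of the genes changed with this rise: Angptl2 stood first in both stimulated groups, with means of 53.0 and 37.2 TPM, and Cxcr5 second with 24.0 and 11.9 TPM.

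Stimulation moved each gene in the same direction in either genotype. These per-genotype values share the unstimulated libraries used to choose the genes and are given without a test, as is their difference. In CD18wt and CD18Foxp3 Treg the log2 fold changes were -4.13 and -3.61 for Sostdc1, -3.43 and -3.10 for Tox2, -2.74 and -2.29 for Bcl6, -2.52 and -1.88 for Cebpa, and -1.52 and -1.01 for Pou2af1. For these genes the fall was the smaller one in CD18Foxp3 Treg, where all 10 genes started lower. For Ascl2 (-3.42 and -4.94), Serpina9 (-3.08 and -3.83) and Cxcr5 (-2.32 and -2.49) it was the larger one there. Il21 (-2.10 and -2.05) and Angptl2 (1.25 and 1.36) had nearly equal values. Standard errors of these estimates ran from 0.20 to 0.87, the widest for Ascl2 in CD18Foxp3 Treg.

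**Figure D2:**
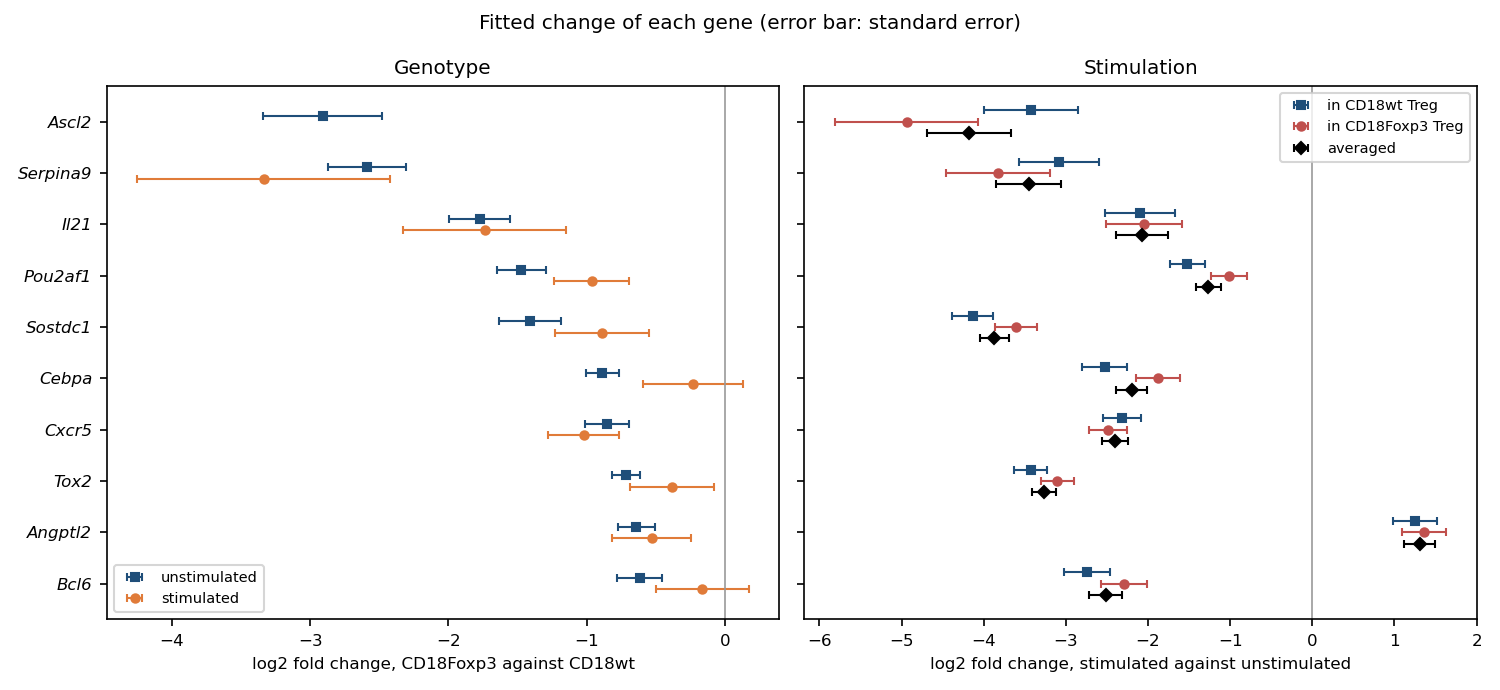
Fitted log2 fold change of each gene with its standard error, on the left for CD18Foxp3 against CD18wt in unstimulated and stimulated Treg, on the right for stimulated against unstimulated Treg in each genotype and averaged. Of the stimulation estimates, those of Angptl2 (1.25, 1.36 and 1.31) are above 0, and Ascl2 has no genotype estimate in stimulated Treg because it had too few reads to be tested.

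In stimulated Treg the genotypes were compared in the 6 other libraries. The direction of several of the genes in these libraries was already known when the list was drawn up, so the counts below are no independent support for it. Of the 10 genes, 9 had enough reads to be tested and all 9 were lower in CD18Foxp3 Treg, where 50.5% of all 11930 genes tested were lower by any amount. None passed the threshold, and neither did any other gene (0%). At an unadjusted p under 0.05, 5 of the 9 were lower (Cxcr5, Serpina9, Pou2af1, Il21 and Sostdc1), beside 2.24% of all genes, and 4.89% (583 genes) passed it in either direction. Serpina9 had enough reads for the test only through the CD18wt group (10, 23 and 15 reads, against 0, 4 and 1). The filter thus favoured a lower value of Serpina9 in CD18Foxp3 Treg. DESeq2 called 22 genes in this comparison, and 0 of them were among the 10. The median log2 fold change of the 9 was -0.89, beside -0.0029 over all genes tested.

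Cxcr5 had the lowest p of the 9 genes. Its 3 CD18Foxp3 libraries (12.6, 14.0 and 9.08 TPM) lay under the 3 CD18wt libraries (19.3, 30.6 and 22.2 TPM), and the log2 fold change was -1.02 (SE 0.26, edgeR adjusted p = 0.534). Without a filter on low counts the adjusted p of Cxcr5 was 0.0070, past the threshold, and over the other settings and left-out libraries it reached 0.993. Pou2af1 (-0.96, SE 0.27), Sostdc1 (-0.89, SE 0.34) and Serpina9 (-3.33, SE 0.91) did not overlap between the genotypes either, and edgeR's quasi-likelihood test gave adjusted p-values of 0.702, 0.916 and 0.627. These are 4 of the 9 genes, beside 4.41% of all genes tested with CD18Foxp3 libraries wholly under CD18wt libraries. The 4 include Serpina9, whose direction the filter favoured. Ascl2 was not tested, with 26 reads in the CD18wt group and 1 in the CD18Foxp3 group, or 0.572 (exact Poisson 95% interval from 0.374 to 0.839) and 0.0193 (from 0.000488 to 0.107) CPM by total exon reads, a ratio of 29.7 with an exact 95% interval from 4.88 to 1218. The reads of each group were pooled, so these intervals cover counting error only, not the spread between libraries, and are no test of genotype.

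Il21 had a log2 fold change of -1.74 (SE 0.59, edgeR adjusted p = 0.852), but its highest CD18Foxp3 library (1.51 TPM) lay above its lowest CD18wt library (1.23 TPM). Angptl2 (-0.53, SE 0.29) and Tox2 (-0.38, SE 0.30) overlapped as well. Cebpa (-0.23, SE 0.36) and Bcl6 (-0.16, SE 0.33) were within 1 standard error of 0. The sign of these last genes rested on single libraries: Bcl6 was at 0.13 without replicate 1 of stimulated CD18wt Treg and at 0.045 without replicate 3 of stimulated CD18Foxp3 Treg, and Cebpa at 0.075 without replicate 1 of stimulated CD18Foxp3 Treg. In this culture the repressor that defines the lineage was thus not distinguishable between the genotypes at this number of libraries, while the unstimulated libraries of Bcl6 did not overlap.

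Other genes of the follicular programme went both ways on stimulation. Of 23 listed genes, such as Maf, Tcf7, Icos, Pdcd1 and Il6st, 22 were tested for stimulation, of which 3 rose and 10 fell past the threshold, with a median log2 fold change of -0.57. Over all genes tested, 22.7% rose and 19.5% fell. The genes of the list that rose were Irf4, a transcription factor induced by antigen receptor signals (3.80, adjusted p = 6.6e-12), the surface glycoprotein gene Cd200 (adjusted p = 1.2e-08) and the costimulatory receptor gene Icos (1.05, adjusted p = 2.5e-06; edgeR quasi-likelihood test). The 4 with the largest falls were Sh2d1a, which encodes the adaptor SAP (-2.14), the IL-6 receptor gene Il6ra (-1.92), Tcf7, which encodes TCF-1 (-1.77), and Il1rn, which encodes the IL-1 receptor antagonist (-1.73), and edgeR's quasi-likelihood test gave them adjusted p-values between 1.2e-10 and 0.0073. Il1rn passed in 5 of the 7 other settings that tested it. Its fall was seen in CD18wt Treg (108 to 14 reads) and hardly in CD18Foxp3 Treg (61 to 54 reads, 0.56 to 0.59 TPM). With upper-quartile normalization 3 rose and 11 fell, and in the limma fit on log2(TPM + 1), which changed the test and the scaling together, 5 rose and 5 fell. By genotype in stimulated Treg, 0 of 21 passed (DESeq2 and the fit without a filter each called 2, both higher), and the median was -0.069.

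Genes known to oppose the follicular programme also went both ways. Of 13 listed genes, 3 rose on stimulation, namely Il2ra, which encodes the IL-2 receptor α chain (2.70, adjusted p = 2.2e-11), Prdm1, which encodes BLIMP-1 (0.84, adjusted p = 2.2e-05), and Stat5a (0.68, adjusted p = 5.9e-06; edgeR quasi-likelihood test). Bcl6 fell and Prdm1 rose in the same libraries, and a relation between these changes was not tested. In the other direction, 7 of the 13 fell, among them the quiescence factor gene Klf2 (-3.08), S1pr1, which encodes the receptor for exit from lymphoid organs (-2.33), and Foxo1 (-1.31), and edgeR's quasi-likelihood test gave them adjusted p-values between 7.8e-10 and 9.3e-07. The shares over all genes were 22.7% higher and 19.5% lower, and the median of the 13 was -0.87, beside 0.011. By genotype in stimulated Treg, 0 of 13 passed, with a median of -0.012. Of 10 activation genes, 9 rose past the threshold on stimulation, with a median of 1.95.

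**Figure D3:**
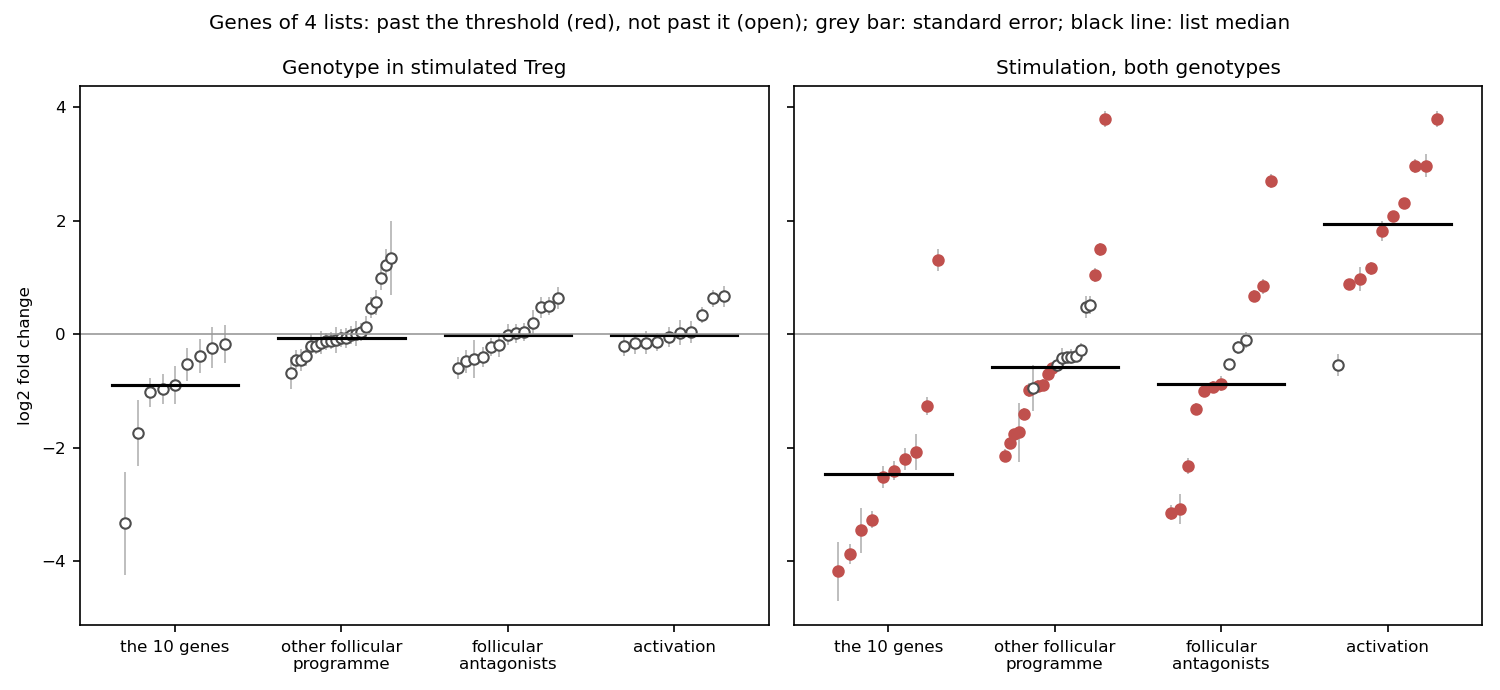
Log2 fold change of each tested gene in 4 lists with its standard error, on the left for CD18Foxp3 against CD18wt in stimulated Treg and on the right for stimulation averaged over the genotypes. Filled points passed the threshold, and the black lines are list medians, at -0.89 for the Tfr genes on the left and at -2.46 on the right, where 1 of the 10 points lies above 0.

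Pou2af1 and Serpina9 are also expressed by B cells, so markers of other cells were read beside them. The 16 B cell markers together were at 40.3 to 44.2 CPM in unstimulated CD18wt Treg and 27.1 to 33.4 CPM in unstimulated CD18Foxp3 Treg, without overlap. They fell to 6.53 to 12.9 CPM and 5.90 to 9.83 CPM after stimulation, where the genotypes overlapped. The sum was carried by Cd79b and Cd22, with 3.50 to 16.3 CPM and 0.443 to 19.9 CPM. Pax5 had 30, 27 and 20 reads in unstimulated CD18wt Treg and 4, 14 and 1 in unstimulated CD18Foxp3 Treg. It differed most of the 5 markers tested in unstimulated Treg. The genotype log2 fold changes there were -2.14 for Pax5, -0.88 for Bank1, -0.76 for Cd22, -0.22 for Cd79a and -0.043 for Cd79b. None of these passed the threshold. Of the defining markers, Ms4a1 and Cd79a reached at most 1.47 and 1.05 CPM. Ighm and Ighd were listed at 0 exon reads in all libraries but held 3537 to 13144 and 43 to 120 intron reads in a library, so their exon values are no measure of their level. Summed over the 10 Tfr genes, the level was 480 to 556 CPM and 222 to 298 CPM in the unstimulated CD18wt and CD18Foxp3 groups and 127 to 216 CPM and 89.3 to 139 CPM in the stimulated groups. The part of B cell RNA in the differences of Pou2af1, Serpina9 and the other genes was not tested.

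The 7 germinal centre B cell markers summed to 28.5 to 30.0 CPM and 22.6 to 23.7 CPM in the unstimulated groups, mostly from S1pr2, which follicular T cells express too. The 7 plasma cell markers stayed between 1.96 and 5.95 CPM in all groups. The 16 myeloid markers were at 17.2 to 40.1 CPM in unstimulated CD18wt Treg and 24.3 to 29.8 CPM in unstimulated CD18Foxp3 Treg, which overlapped. Cebpb held the most reads of them, 1143 in the unstimulated CD18wt group and 1026 in the unstimulated CD18Foxp3 group. Lyz2 had 195 and 63 reads in these groups, and Itgam 17 and 63. The part of myeloid RNA in the genotype difference of Cebpa was not tested. The sum of the myeloid markers was lower after stimulation, at 8.52 to 12.8 CPM and 9.54 to 14.8 CPM. Cebpb, with most of the reads, went to 360 and 367 reads in the stimulated CD18wt and CD18Foxp3 groups. Not every marker fell: Cd68 went from 97 and 85 reads to 117 and 190 (log2 fold change 0.58, not past the threshold). Of the 4 tested, 3 fell past the threshold, beside 19.5% of all genes. With at least 10 counts in every library, 2 were tested and 1 fell. The 6 markers of CD8 and NK cells overlapped between the genotypes in both cultures. Their sum was also lower after stimulation, at 20.4 to 31.5 CPM in unstimulated and 8.09 to 15.1 CPM in stimulated libraries. Cd8b1 held the most reads, 614 and 777 in the unstimulated CD18wt and CD18Foxp3 groups and 338 and 517 in the stimulated groups. Cd8a held only 5 and 5 reads, then 23 and 4, and Ncr1 held 0 in each group. All 3 tested fell past the threshold, beside the same 19.5%, and Klrb1c held only 0 and 4 reads in the stimulated groups. With at least 10 counts in every library, 2 were tested and 2 fell. The part of these markers' cells in the fall of the Tfr genes was not tested. The 8 Treg identity genes summed to 2666 to 2987 CPM in unstimulated and 3905 to 5792 CPM in stimulated Treg.

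**Figure D4:**
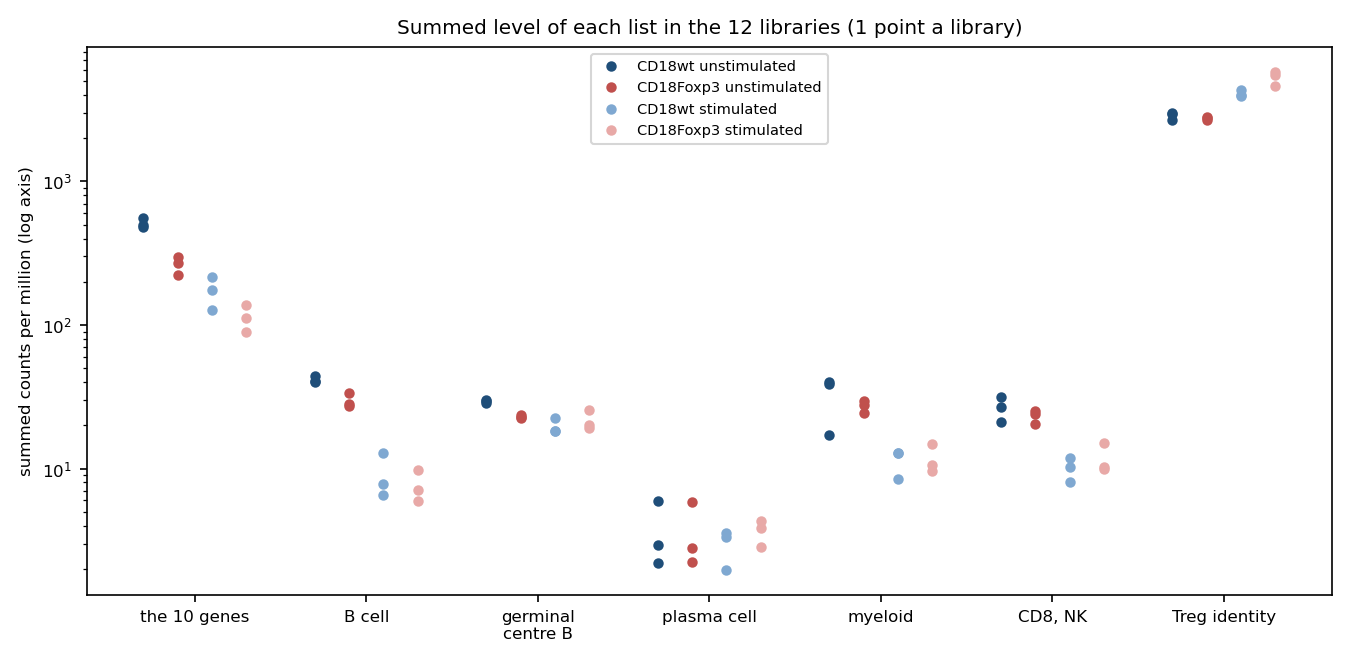
Summed CPM (log axis) of the 10 Tfr genes and of 6 marker lists in each of the 12 libraries, 1 point a library, coloured by group. The Tfr genes (89.3 to 556 CPM) and the B cell markers (5.90 to 44.2 CPM) are lowest in the stimulated groups. The sum of the Treg identity genes, which include Il2ra, is highest there.

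Among libraries of the same group, the 10 genes varied together only weakly. Over the 45 pairs of genes, the Pearson correlation of deviations from the group means of log2 CPM over 12 libraries had a median of 0.17, from -0.54 (Bcl6 with Cebpa) to 0.84 (Sostdc1 with Pou2af1). These values are descriptive, since the deviations share library and depth and each group holds 3 libraries. With the deviations of the summed B cell markers, the correlation ran from -0.58 for Cxcr5 to 0.51 for Ascl2. It was 0.40 for Cebpa, 0.34 for Bcl6, 0.20 for Il21, 0.13 for Tox2, 0.11 for Pou2af1, 0.059 for Angptl2, -0.15 for Sostdc1 and -0.18 for Serpina9.

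Over all 12 libraries, the levels of each gene were set beside those of all other genes tested, as Pearson's r of log2 CPM. Such values rest mostly on the step between the unstimulated and stimulated groups. They also hold the genotype difference in unstimulated Treg by which the 10 genes had been chosen. Nearness among the 10 is therefore no result of its own. Cxcr5 was most like Tspan13 (0.983), Sostdc1 (0.979) and Il6st (0.977), and Sostdc1 most like Il6st (0.987), Tspan13 (0.987) and Gng2 (0.985). Ascl2 was most like Pou2af1 (0.969), C1ql3 (0.965) and Serpina9 (0.963). In deviations from the group means, its correlation was 0.36 with Pou2af1 and -0.11 with Serpina9. Pou2af1 had Ascl2 (0.969), Serpina9 (0.954) and Chst15 (0.952) nearest, and Serpina9 had Chst15 (0.980), Itgb2 (0.977) and Ascl2 (0.963). Serpina9 and Itgb2, the deleted gene, were both lower in CD18Foxp3 Treg and both lower after stimulation. Il21 was most like Chst15 (0.959), Fcmr (0.949) and Med13l (0.948). The remaining genes had none of the 10 nearest to them: Bcl6 was most like Ankrd44, Cep120 and Ssh2 (0.983 to 0.985), Tox2 most like Cybb, Ubash3a and Dtx4 (0.988 to 0.990), Cebpa most like Diaph1, Asrgl1 and Spock2 (0.977 to 0.983), and Angptl2 most like Sac3d1, Otud7b and Exosc3 (0.964 to 0.977).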

How the data were processed

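Poly(A) RNA of sorted splenic Treg was sequenced in 59-base single reads after 15 PCR cycles, with 12 libraries in 4 groups of 3 that the sample labels give. The authors trimmed the reads, aligned them to GRCm38 and used CLC Genomics Workbench with default settings to count reads on each gene. For each gene they deposited counts of exon reads, in total and uniquely placed, counts of intron reads, and TPM written with decimal commas, together with RPKM, which were not used here. The total exon counts, without normalization, were the basis of the tests, and the deposited TPM were the levels. Depth was 10665174 to 19005482 exon reads, and replicates differed by more than counting error (chi-square per gene 6.12 to 64.7). P-values measure the spread between these libraries.

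Counts were tested with edgeR 4.0.16 in R 4.3.3: filterByExpr with a minimum count of 10, TMM normalization, a robust quasi-likelihood F-test and Benjamini-Hochberg adjustment over all genes tested, on the 6 libraries of a culture for the genotype and on 12 for stimulation. The threshold was the study's, 1.5-fold with an adjusted p no higher than 0.01. CPM use TMM library sizes. The fits were tested on simulated data. Alternatives were DESeq2 1.42.0, upper-quartile normalization, uniquely placed reads, no filter, a minimum of 10 counts in each library, limma 3.58.1 on log2 TPM with a pseudocount of 1 or 0.1, all 12 libraries in 1 fit, a replicate block, leaving out each library in turn and an adjusted p of 0.05. The 10 genes, the other lists and the tests were chosen with earlier results of these data known, including the direction of several of the 10 in stimulated Treg. The genes named were the 10, for each of them the 3 with the highest correlation over the libraries, up to 4 called genes per list and direction, and defining markers, some of which are not reported here. Tables and figures were made in Python 3.11.15 (pandas 2.3.3, matplotlib 3.10.9). Libraries with the same replicate number were not treated as pairs: correlations of their deviations ran from -0.095 to 0.15 between cultures of a genotype and from -0.13 to 0.085 between genotypes.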

Additional observations from a re-analysis of the deposited data

How the results depend on the processing

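In stimulated Treg, where 0 genes passed, DESeq2 called 22, the fit without a filter 61, limma on log2(TPM + 0.1) 1, the replicate block 1, and the fits that each left out 1 library between 0 and 2, the 2 without replicate 3 of stimulated CD18wt Treg. Of the 10 genes, 0 were called in these fits, except 1 (Cxcr5) without a filter. With each library left out, the log2 fold change of Bcl6 ran from -0.44 to 0.13 and that of Cebpa from -0.60 to 0.075. In unstimulated Treg, given as a description, the 16 genes past the threshold became 86 with DESeq2, 134 without a filter, 1 and 5 with limma on log2(TPM + 1) and log2(TPM + 0.1), 0 with all 12 libraries, 41 with the replicate block, 33 at an adjusted p of 0.05 and between 0 and 44 with each library left out, the 44 without replicate 3 of CD18wt Treg. For stimulation, all 10 genes kept their direction and call in the alternatives in which they were tested, including 12 fits without 1 library; with at least 10 counts in every library 7 were tested. The replicate block, which called 5175 genes for stimulation, changed no other call of the 10 in the tested comparisons. Labels give no pairing, and same-numbered libraries of a genotype correlated best with each other in 4 of 6 cases. Few reads of Ascl2 and Serpina9 in stimulated Treg limit what can be said of them.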
